A study of Mus musculus with 18 samples.

Results

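The 10 lymphoid priming genes FLT3, IL7R, SATB1, MEF2C, CD79B, IKZF1, DNTT, RAG1, EBF1 and CD52 were followed across every group of an RNA sequencing study of mouse blood stem and progenitor cells. They were chosen by name, as the rows of the gene column that carry these symbols. All 10 were found among the 25601 gene names of each of the 2 expression tables. The cells were LSK cells of C57Bl/6 mice, a bone marrow fraction without lineage markers and with cKit and Sca1 on the surface, which includes the hematopoietic stem cells along with multipotent progenitors. The 18 libraries fell into 6 groups of 3. Freshly sorted LSK cells came from mice that had been irradiated and from control mice, with 3 mice pooled for each library. Cultured LSK cells came from irradiated and control mice, each with and without DL1, with 1 mouse for each library. Irradiated mice had received a sublethal dose of 2.5 Gy from Cs-137 and had recovered for at least 9 weeks. All cultures were seeded with 200 LSK cells, held mouse stem cell factor and human Flt3 ligand, IL-11 and IL-6 for 6 days, and were sorted again for LSK cells before RNA was taken. DL1 is the usual abbreviation of the Notch ligand Delta-like 1; the labels do not spell it out, do not say how it was presented, and give no age or sex of the mice. The title of the series sets Notch against the myeloid transcription factor C/EBPα in hematopoietic stem cell defects caused by irradiation.

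Lymphoid priming is the low, early transcription of lymphoid genes in multipotent progenitors before these cells are committed to the B or T lineage. Progenitors that raise the cytokine receptor Flt3 lose megakaryocyte and erythroid potential and are called lymphoid-primed. Ikaros, Mef2c and Satb1 act upstream in this step, whereas Il7r and the B lineage factor Ebf1 mark the common lymphoid progenitor and the stages after it. Of the recombination genes Rag1 and Dntt, Dntt already read 61.4 to 216.8 FPKM in the freshly sorted LSK cells here. Notch signals at this branch favour the T lineage over the B lineage.

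The 300-base promoter windows of Flt3 and Il7r are shown because these 2 receptor genes moved in opposite directions in every cultured comparison in which both passed the test. The windows are RefSeq sequence on GRCm38.p6, from 250 bases before to 50 bases after the annotated start, both on the minus strand and printed 5′ to 3′. Flt3 lies at chr5:147400440-147400739 and Il7r at chr15:9529827-9530126. Capitals mark matches, on either strand, to TGGGAA (a core shared by the Notch partner RBPJ and by Ikaros), TTGCNNAA (C/EBP), CAGGTG (E proteins), AGGAAG (ETS factors) and CANNTG (any E-box, which includes every CAGGTG).
Flt3: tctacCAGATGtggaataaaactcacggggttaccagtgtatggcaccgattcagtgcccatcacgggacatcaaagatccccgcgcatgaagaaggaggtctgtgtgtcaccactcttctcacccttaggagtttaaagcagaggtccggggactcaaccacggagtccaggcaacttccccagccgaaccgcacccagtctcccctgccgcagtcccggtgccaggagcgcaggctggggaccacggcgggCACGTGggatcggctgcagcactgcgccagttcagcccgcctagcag
Il7r: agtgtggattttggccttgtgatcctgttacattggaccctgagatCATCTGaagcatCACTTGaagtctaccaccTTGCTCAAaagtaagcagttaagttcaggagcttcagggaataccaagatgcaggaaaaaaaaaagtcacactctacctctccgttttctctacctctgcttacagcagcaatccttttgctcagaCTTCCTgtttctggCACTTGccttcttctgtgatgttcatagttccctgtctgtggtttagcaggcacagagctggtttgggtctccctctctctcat
The Flt3 window held 2 E-boxes, CAGATG at position -245 and CACGTG at position 4 from the start, and none of the other motifs. The Il7r window held 1 C/EBP match, TTGCTCAA at position -174, 1 ETS match at position -48 and 3 E-boxes. Of 32851 mouse promoter windows of this length, 10.8% held TTGCNNAA, 35.4% AGGAAG, 72.3% CANNTG, 25.6% TGGGAA and 20.2% CAGGTG, so each match is a description of these letters only. Windows were found for 8 of the 10 genes. TGGGAA matches lay in the Rag1 window (position -52), in an Ebf1 window (-207) and in windows of Satb1 (18 and -70). The Rag1 window also held CAGGTG at position -135 and an ETS match at -148, whereas the Dntt window held 3 E-boxes and none of the other motifs. CAGGTG lay in windows of Satb1 too (2 and -172), and ETS matches lay in windows of Satb1, Ikzf1 and Mef2c.

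Levels are FPKM, fragments scaled by transcript length and by the size of the library, as the authors deposited them. Each change is a log2 fold change with its standard error (±), fitted by limma to log2(FPKM + 1), with p-values adjusted over all genes tested. This scale understates the change of genes near or below 1 FPKM. Genes with a mean of at least 1 FPKM over a table were tested, 12890 in freshly sorted and 12011 in cultured cells. Of the 10 genes, 9 were tested in freshly sorted cells, all but Rag1, and 7 in cultures, all but Dntt, Rag1 and Ebf1. Each group had n = 3 libraries, and SDs are over those 3. Total read numbers are not in the tables. Relative depth, read from the spacing of low values, lay between 0.756 and 1.09 of the first control culture, except irradiated replicate 2 with DL1 at 0.488, and between 0.645 and 1 of the first control in freshly sorted cells. The defining LSK transcripts Kit and Ly6a (Sca1) were at least 31.6 FPKM in every library. In bulk RNA, fewer cells of a type and less RNA per cell cannot be told apart.

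Most of the 10 genes had lower levels in cultured than in freshly sorted cells. Dntt, the polymerase that adds bases at recombination joints, read between 0 and 0.105 FPKM over the 12 cultured libraries and between 61.4 and 216.8 FPKM over the 6 freshly sorted ones. Satb1, a chromatin organiser, read between 2.12 and 8.71 FPKM in cultured and between 21.4 and 34.2 FPKM in freshly sorted cells. Flt3 read between 4.78 and 33.3 FPKM in cultured and between 45.95 and 79.2 FPKM in freshly sorted cells. Mef2c, Ikzf1 and Cd79b also had their whole cultured range below their freshly sorted range. Cd52, a surface glycoprotein of mature lymphocytes and several other blood cells, was an exception, with 177.0 to 284.8 FPKM in cultured and 70.5 to 182.7 FPKM in freshly sorted cells. These levels come from tables that were normalized separately, and ribosomal and small RNA-like names held 1.01 to 2.42% of FPKM in cultured and 23.7 to 28.4% in freshly sorted libraries, so no test was made between them.

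In cultures without DL1, 6 of the 7 tested genes differed between cells of irradiated and control mice. Flt3, Mef2c, Cd79b, Satb1 and Ikzf1 fell, and Il7r rose. For comparison, 29.7% of all tested genes passed in either direction, 15.9% lower and 13.8% higher. Median-ratio scaling turned that split round, with 2002 genes higher and 1479 lower in place of 1659 higher and 1909 lower, while the directions of the 6 called genes stayed as they were. The 7 genes had a median log2 fold change of -0.38, against -0.026 over all genes.

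Among the receptors, Flt3, which binds Flt3 ligand and sustains lymphoid progenitors, showed the widest change. It read 7.27, 4.78 and 6.64 FPKM in irradiated cultures without DL1, against 14.2, 13.0 and 16.3 FPKM in control cultures without DL1. The groups did not overlap, and the change was -1.11 ± 0.13 (adjusted p = 2.83e-04, limma). Il7r, the alpha chain of the interleukin-7 receptor, read 3.13, 2.31 and 2.10 FPKM in irradiated cultures, against 1.33, 1.04 and 1.87 FPKM in control cultures. All 3 irradiated libraries were above all 3 controls, with a change of 0.54 ± 0.16 (adjusted p = 0.0241, limma). Il7r lay just above the filter, with a mean of 1.41 FPKM over the 12 cultured libraries, and its call was lost without control replicate 1 (adjusted p = 0.0671), control replicate 2 (0.104) or irradiated replicate 1 (0.0999), and in a fit of the 2 groups alone (0.0518).

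The transcription factor genes were lower in irradiated cultures. Mef2c, a MADS-box factor that favours lymphoid over myeloid fate in progenitors, read 10.4, 9.78 and 9.98 FPKM in irradiated cultures, against 14.8, 14.3 and 15.3 FPKM in control cultures. The libraries lay close together within each group and far apart between groups, and the change was -0.52 ± 0.056 (adjusted p = 1.57e-04, limma). Satb1 read 2.69, 2.12 and 2.52 FPKM in irradiated cultures, against 3.50, 3.23 and 3.73 FPKM in control cultures (-0.38 ± 0.086, adjusted p = 0.00717). Ikzf1, which encodes Ikaros, a zinc finger factor needed for lymphoid development, read 42.1, 40.9 and 38.3 FPKM in irradiated cultures, against 49.1, 46.5 and 47.0 FPKM in control cultures. Neither gene's groups overlapped, and the change of Ikzf1 was small, at -0.23 ± 0.061 (adjusted p = 0.0161). Its call was lost without control replicate 1 (adjusted p = 0.0564, limma).

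Cd79b, which encodes the beta signalling chain of the B cell receptor, fell to 10.1, 8.50 and 10.7 FPKM in irradiated cultures, against 12.4, 12.9 and 15.1 FPKM in control cultures. The groups did not overlap, with a change of -0.43 ± 0.093 (adjusted p = 0.00644, limma). Its partner Cd79a, which is needed for the same receptor, stayed at or below 0.114 FPKM in every cultured library. Cd52 read 262, 221 and 198 FPKM in irradiated cultures, against 177, 179 and 225 FPKM in control cultures. These groups overlapped, and the change of 0.23 ± 0.11 did not pass (adjusted p = 0.138). It passed without control replicate 3 (0.0327) or irradiated replicate 3 (0.0363).

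**Figure D1:**
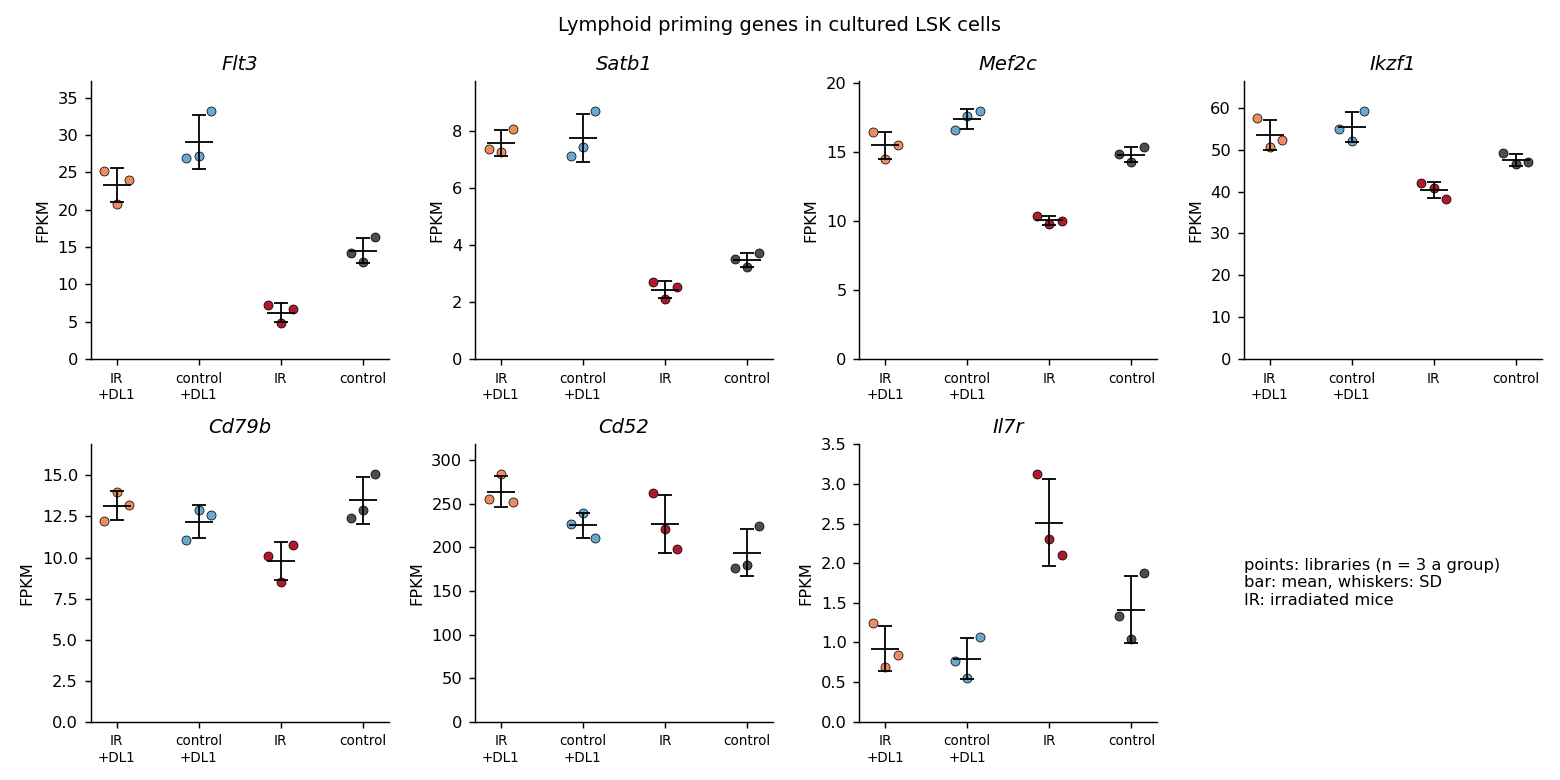
FPKM of the 7 tested genes in the 12 cultured libraries, in irradiated (IR) and control cultures with DL1 and without it (points, libraries; bar and whiskers, mean and SD, n = 3). Flt3, Satb1, Mef2c, Ikzf1 and Cd79b are lowest in irradiated cultures without DL1, where Il7r is highest, and the 3 irradiated Flt3 values there lie between 4.78 and 7.27 FPKM, below those of the other groups.

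The same libraries differed in their myeloid transcripts. All 11 tested macrophage and monocyte markers rose in irradiated cultures without DL1, with a median log2 fold change of 0.99, and their summed level was 4249 to 6373 FPKM in irradiated cultures, against 2165 to 3152 FPKM in control cultures. All 10 granulocyte precursor markers rose too, with a median of 1.05 and summed levels of 8288 to 10830 FPKM in irradiated cultures, against 4651 to 5363 FPKM in control cultures. Of the 3 tested markers of natural killer and innate lymphoid cells 2 rose, and that list summed to 45.7 to 62.5 FPKM in irradiated and 20.1 to 23.0 FPKM in control cultures. Most of that sum was Nkg7, a granule membrane protein of cytotoxic cells, at 48.0, 60.9 and 44.2 FPKM in irradiated and 18.9, 21.7 and 19.1 FPKM in control cultures. None of the macrophage, monocyte or granulocyte precursor markers was at 0 in any library. The part of such cells in the changes of the lymphoid priming genes was not tested. The 6 LSK gate markers summed to 694 to 805 FPKM in irradiated cultures and 707 to 831 FPKM in control cultures, ranges that overlapped. Of the 4 gate markers tested 1 fell, Cd34, a surface protein of progenitors, at 143, 157 and 179 FPKM in irradiated and 243, 237 and 235 FPKM in control cultures (-0.58 ± 0.07, limma adjusted p = 2.5e-04). The 10 dendritic cell markers summed to 943 to 1691 FPKM in irradiated cultures and 646 to 1119 FPKM in control cultures, with 0 of the 6 tested genes passing in either direction in limma and 1, Cd74, with p under 0.05 without adjustment.

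**Figure D2:**
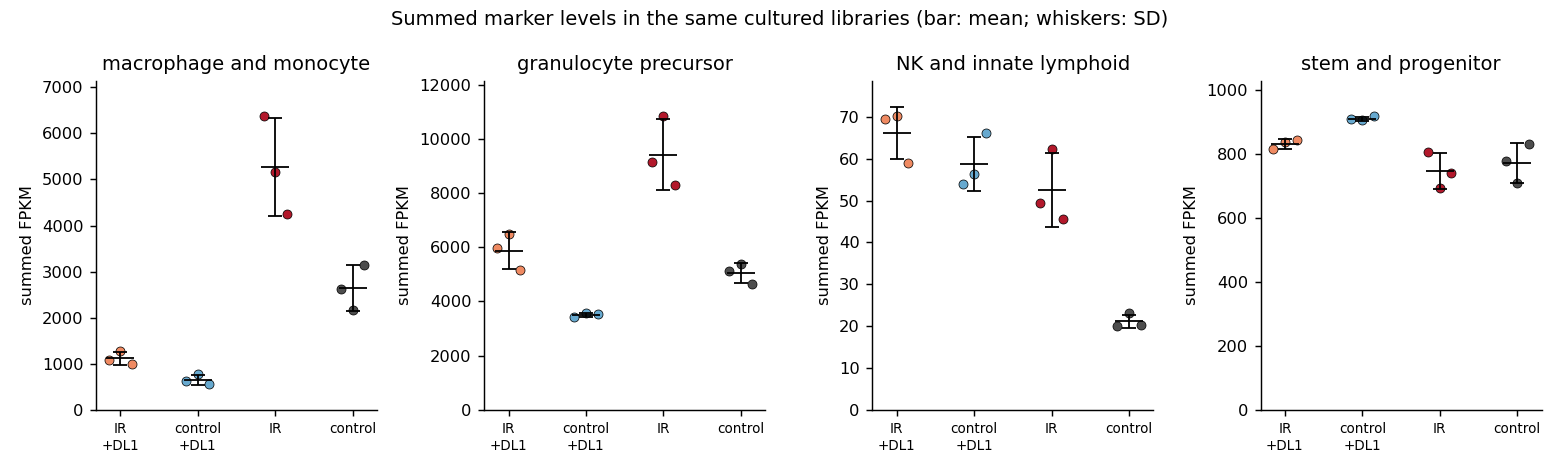
Summed FPKM of 4 marker lists in the 12 cultured libraries, in the same group order (points, libraries; bar and whiskers, mean and SD, n = 3). Macrophage and monocyte markers are highest in irradiated cultures without DL1 (4249 to 6373 FPKM) and lowest in control cultures with DL1 (560 to 766 FPKM), while the summed stem and progenitor markers vary less.

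DL1 was accompanied by higher levels of most of the 7 tested priming genes. In irradiated cultures, 5 of the 7 genes rose with DL1 and 1 fell, against 24.4% of all tested genes higher and 17.0% lower (41.4% in either direction). In control cultures 4 rose, against 14.0% of all tested genes higher and 12.3% lower (26.3% in either direction). Under median-ratio scaling, 2029 genes rose and 2460 fell in irradiated cultures, in place of 2932 and 2041, and 1255 rose and 1716 fell in control cultures, in place of 1677 and 1479. No called priming gene changed direction under it. The median change of the 7 genes was 0.40 in irradiated cultures, against 0.061 over all genes, and 0.22 in control cultures, against 0.037 over all genes.

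Flt3 read 25.2, 20.8 and 23.9 FPKM in irradiated cultures with DL1, and all 3 were above the irradiated cultures without it (1.76 ± 0.13, adjusted p = 1.56e-06, limma). In control cultures with DL1 it read 26.9, 27.2 and 33.3 FPKM, again above the control cultures without DL1 (0.96 ± 0.13, adjusted p = 1.94e-04). Each of the 4 cultured groups therefore held its own range of Flt3 levels with no overlap, in the order irradiated, control, irradiated with DL1 and control with DL1. The difference between the last 2 groups of that order did not pass the test and is given below.

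Satb1 read 7.38, 7.27 and 8.09 FPKM in irradiated cultures with DL1 and 7.12, 7.43 and 8.71 FPKM in control cultures with DL1. Both sets lay above every culture without DL1, with changes of 1.32 ± 0.086 in irradiated cultures (adjusted p = 6.82e-07, limma) and 0.96 ± 0.086 in control cultures (adjusted p = 9.02e-06). Mef2c read 16.5, 14.5 and 15.5 FPKM in irradiated cultures with DL1, a rise of 0.58 ± 0.056 over irradiated cultures without it (adjusted p = 9.05e-06). The levels with DL1 overlapped those of control cultures without DL1. In control cultures with DL1 Mef2c read 16.6, 17.6 and 18.0 FPKM, a smaller rise of 0.22 ± 0.056 (adjusted p = 0.0120), which no longer passed without control replicate 2 (0.0518) or without replicate 3 of the control cultures with DL1 (0.0551).

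Ikzf1 read 57.5, 50.5 and 52.3 FPKM in irradiated cultures with DL1, above all 3 irradiated cultures without it (0.39 ± 0.061, adjusted p = 3.36e-04, limma). It read 55.0, 52.1 and 59.3 FPKM in control cultures with DL1, a rise of 0.22 ± 0.061 (adjusted p = 0.0204). That second call was lost under median-ratio scaling (adjusted p = 0.0731), after rescaling without ribosomal RNA-like rows (0.0773), and without control replicate 2 (0.0667), control replicate 3 (0.0529), or replicate 1 (0.0546) or replicate 3 (0.0945) of the control cultures with DL1. Without replicate 3 of the control cultures with DL1, 2 of the 7 genes passed in control cultures instead of 4.

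Cd79b rose with DL1 in irradiated cultures, with 12.2, 14.0 and 13.2 FPKM in irradiated cultures with DL1 (0.40 ± 0.093, adjusted p = 0.00534, limma). In control cultures with DL1 it read 11.1, 12.9 and 12.6 FPKM, which overlapped the controls without DL1 (-0.13 ± 0.093, adjusted p = 0.324). The difference between these 2 effects is the same quantity as the difference between the irradiation effects with and without DL1, given below, and did not pass. Cd52 read 256, 285 and 252 FPKM in irradiated cultures with DL1 and 227, 239 and 210 FPKM in control cultures with DL1. Its changes of 0.23 ± 0.11 (adjusted p = 0.115) and 0.22 ± 0.11 (adjusted p = 0.155) over the cultures without DL1 did not pass, although the first passed without irradiated replicate 1 (0.0266) and the second without control replicate 3 (0.0359).

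Il7r fell to 1.24, 0.694 and 0.836 FPKM in irradiated cultures with DL1, with all 3 below every irradiated culture without DL1 (-0.87 ± 0.16, adjusted p = 0.00110, limma). In control cultures with DL1 it read 0.764, 0.551 and 1.06 FPKM, a change of -0.42 ± 0.16 that did not pass (adjusted p = 0.0699) with groups that overlapped slightly. This second comparison passed without control replicate 2 (0.0428) and with the replicate number as a block (0.0447).

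Myeloid marker levels moved with DL1 as well. All 11 macrophage and monocyte markers fell with DL1 in irradiated cultures, to a summed 1004 to 1281 FPKM, and 10 of 11 fell in control cultures, to 560 to 766 FPKM. Of the 10 granulocyte precursor markers, 9 fell in irradiated cultures and 7 in control cultures. Of the 3 tested markers of natural killer and innate lymphoid cells, 2 were higher with DL1 in irradiated and 3 in control cultures. Among them, Gzma read at most 0.0462 FPKM without DL1 and 1.94 to 7.30 FPKM with it. Gzma passed the filter only through the cultures with DL1, so its rise is not separate support. Ncr1, Klrb1c and Il2rb were not tested and read at most 0.256 FPKM in any culture. Both tested T cell markers rose in irradiated and in control cultures. Of the 6 tested dendritic cell markers, 3 were higher with DL1 and 0 lower in irradiated cultures, with a median log2 fold change of 0.50. In control cultures 3 were higher and 0 lower too, with a median of 0.51. That list summed to 1251 to 1583 FPKM in irradiated and 990 to 1084 FPKM in control cultures with DL1, ranges that overlapped those without DL1. The part of all these cell types in the changes of the priming genes was not tested. Mature B cell markers stayed at a summed 0.302 to 1.23 FPKM over all cultured libraries.

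In cultures with DL1, 0 of the 7 genes differed between irradiated and control cells by limma with adjustment, and 3.16% of all tested genes did. Without adjustment 2 of the 7 had p under 0.05, Flt3 and Mef2c, against 18.6% of all genes. Flt3 was lower in all 3 irradiated cultures with DL1 than in all 3 control cultures with DL1 (-0.31 ± 0.13, adjusted p = 0.237). Mef2c was likewise lower without overlap (-0.16 ± 0.056, adjusted p = 0.152), and Cd52 was higher without overlap (0.23 ± 0.11, adjusted p = 0.291). Groups did not overlap in either direction for 33.1% of all tested genes. The changes of Satb1 (-0.03 ± 0.086), Ikzf1 (-0.05 ± 0.061), Cd79b (0.10 ± 0.093) and Il7r (0.10 ± 0.16) were within about 1 standard error of 0. Cd34 fell to 196, 202 and 212 FPKM in irradiated cultures with DL1, against 270, 274 and 270.0 FPKM in control cultures with DL1 (-0.41 ± 0.07, limma adjusted p = 0.0079). In the same libraries 6 of 11 macrophage and monocyte markers and 9 of 10 granulocyte precursor markers rose after irradiation with DL1 present, and the granulocyte precursor list summed to 5142 to 6487 FPKM in irradiated and 3405 to 3552 FPKM in control cultures with DL1. The median over the 7 genes was -0.026, against -0.017 over all genes.

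Whether the irradiation effect itself differed with DL1 was tested as the difference between the 2 effects. None of the 7 genes passed after adjustment in limma, against 0.0749% of all tested genes, and 4 of the 7 had p under 0.05 without adjustment, against 10.4% of all genes. Mef2c had the smallest p, with a difference of 0.36 ± 0.079 (unadjusted 6.66e-04, adjusted p = 0.139, limma). Flt3 followed with 0.80 ± 0.19 (unadjusted 9.88e-04, adjusted p = 0.157), Cd79b with 0.53 ± 0.13 (unadjusted 0.00172, adjusted p = 0.182) and Satb1 with 0.36 ± 0.12 (unadjusted 0.0122, adjusted p = 0.340). A positive value means that the irradiation effect was more positive with DL1 than without it. The difference for Il7r was -0.44 ± 0.23 (adjusted p = 0.521) and that for Cd52 was 0.0012 ± 0.15 (adjusted p = 0.999). All these cultured comparisons share libraries, so their values are given side by side and not as separate support for each other.

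**Figure D3:**
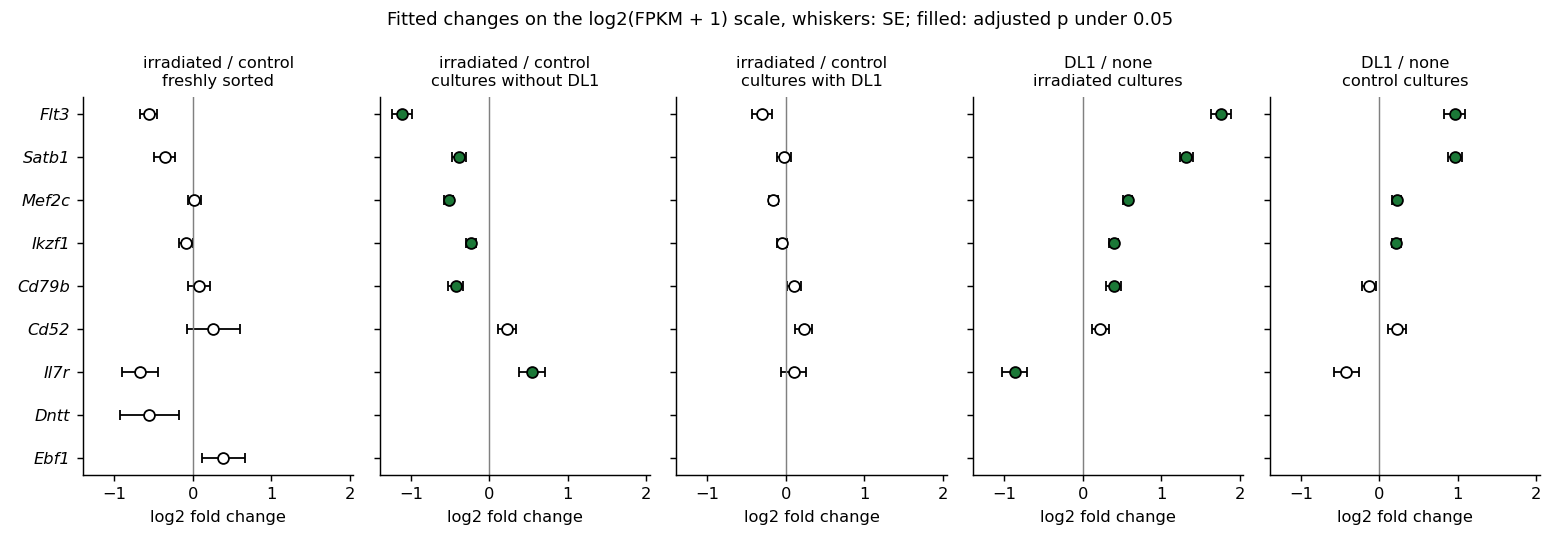
Fitted log2 fold changes (horizontal axis, from log2(FPKM + 1)) and their standard errors, in the freshly sorted comparison and the 4 cultured comparisons (filled points, adjusted p under 0.05). Flt3 runs from -1.11 in irradiated against control cultures without DL1 to 1.76 with DL1 against none in irradiated cultures, Il7r runs the other way in those 2 comparisons, and no point is filled in the freshly sorted cells or in cultures with DL1.

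Dntt, Rag1 and Ebf1 were at or near 0 in culture. Dntt was above 0 in 7 of the 12 cultured libraries, between 0.0162 and 0.105 FPKM, with at least 1 such library in every group. Rag1, the recombinase subunit that cuts antigen receptor genes, was listed at 0 except for 0.00553 and 0.00559 FPKM in 2 control cultures with DL1. Ebf1, a factor that commits cells to the B lineage, was listed at 0 except for 0.0175 FPKM in control replicate 3 without DL1. No differences between groups were detectable at these levels.

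In freshly sorted cells, 0 of the 9 tested genes passed between irradiated and control mice by limma with adjustment, while 0.101% of all tested genes did. Without adjustment 3 of the 9 had p under 0.05, Flt3, Il7r and Satb1, against 6.87% of all genes. The median change of the 9 genes was -0.085, against 0.0084 over all genes. Flt3 read 46.6, 46.0 and 47.6 FPKM in irradiated cells, against 72.3, 79.2 and 58.5 FPKM in control cells. The groups did not overlap, and the change was -0.56 ± 0.11 (unadjusted 7.37e-04, adjusted p = 0.183). The irradiated values lay within an SD of 0.852 FPKM, whereas the control values had an SD of 10.5 FPKM.

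Il7r read 2.25, 3.51 and 1.49 FPKM in freshly sorted irradiated cells, against 3.85, 5.67 and 3.55 FPKM in control cells. These groups were adjacent without overlap (-0.67 ± 0.23, adjusted p = 0.587, limma). Flt3 and Il7r were the only ones of the 10 genes without overlap, and 12.7% of all tested genes had none. Satb1 read 22.6, 22.2 and 21.4 FPKM in irradiated cells, against 30.1, 34.2 and 22.5 FPKM in control cells, and overlapped through control replicate 3 (-0.36 ± 0.14, adjusted p = 0.646). Dntt read 61.4, 95.1 and 93.3 FPKM in irradiated cells, against 121, 217 and 65.6 FPKM in control cells (-0.55 ± 0.37, adjusted p = 0.870). Control replicate 2 carried much of that difference, and without it the change of Dntt was -0.13 (adjusted p = 0.983).

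Mef2c averaged 42.8 ± 1.91 FPKM in irradiated and 42.3 ± 3.28 FPKM in control cells, and Ikzf1 averaged 92.2 ± 6.84 FPKM in irradiated and 97.7 ± 5.11 FPKM in control cells. Cd79b averaged 21.6 ± 3.39 FPKM in irradiated and 20.3 ± 3.03 FPKM in control cells. Each of these 3 genes differed by less than the larger of its 2 SDs. Ebf1 read 1.0025, 2.45 and 0.714 FPKM in irradiated cells, against 0.471, 0.695 and 1.11 FPKM in control cells (0.39 ± 0.27, adjusted p = 0.881, limma). Rag1, which was not tested, read 0.803, 1.60 and 0.253 FPKM in irradiated cells, against 0.368, 0.754 and 0.408 FPKM in control cells. Cd52 read 75.6, 182.7 and 109 FPKM in irradiated cells, against 70.5, 147 and 83.1 FPKM in control cells (0.26 ± 0.34, adjusted p = 0.954). Each of these 3 genes overlapped widely between the groups.

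Single libraries stood out in a pattern shared by several genes. Control replicate 2 had the highest value of all 6 freshly sorted libraries for 6 of the 10 genes, Flt3, Il7r, Satb1, Mef2c, Ikzf1 and Dntt, and irradiated replicate 2 for the other 4, Cd79b, Rag1, Ebf1 and Cd52. Within the 3 control libraries, replicate 2 was highest for 8 of the 10 genes and replicate 3 lowest for 6. Control replicate 2 had the lowest relative depth of the 6 libraries, at 0.645. Its granulocyte precursor markers summed to 4805 FPKM, against 2557 and 3846 FPKM in the other controls and 2507 to 4194 FPKM in irradiated cells. Its macrophage and monocyte markers summed to 665 FPKM, against 395 and 529 FPKM in the other controls and 414 to 741 FPKM in irradiated cells. Irradiated replicate 2 also had a summed early B lineage level of 135 FPKM, against 53.0 and 63.2 FPKM in the other irradiated libraries and 40.3 to 66.4 FPKM in the controls. Its summed dendritic cell markers reached 1152 FPKM, against 312 and 403 FPKM in the other irradiated libraries and 318 to 595 FPKM in the controls. Mature B cell markers summed to 25.3 FPKM in irradiated replicate 2, 12.6 and 11.7 FPKM in the other irradiated libraries, and 7.61 to 12.01 FPKM in control cells. Natural killer and innate lymphoid markers summed to 144 to 176 FPKM in irradiated and 91.3 to 98.4 FPKM in control cells. Most of that sum was Nkg7, at 139, 155 and 172 FPKM in irradiated and 88.8, 92.2 and 87.3 FPKM in control cells, and it was the 1 of 4 tested markers of that list that passed. The part of other cell types and of depth in the values of the 10 genes was not tested.

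**Figure D4:**
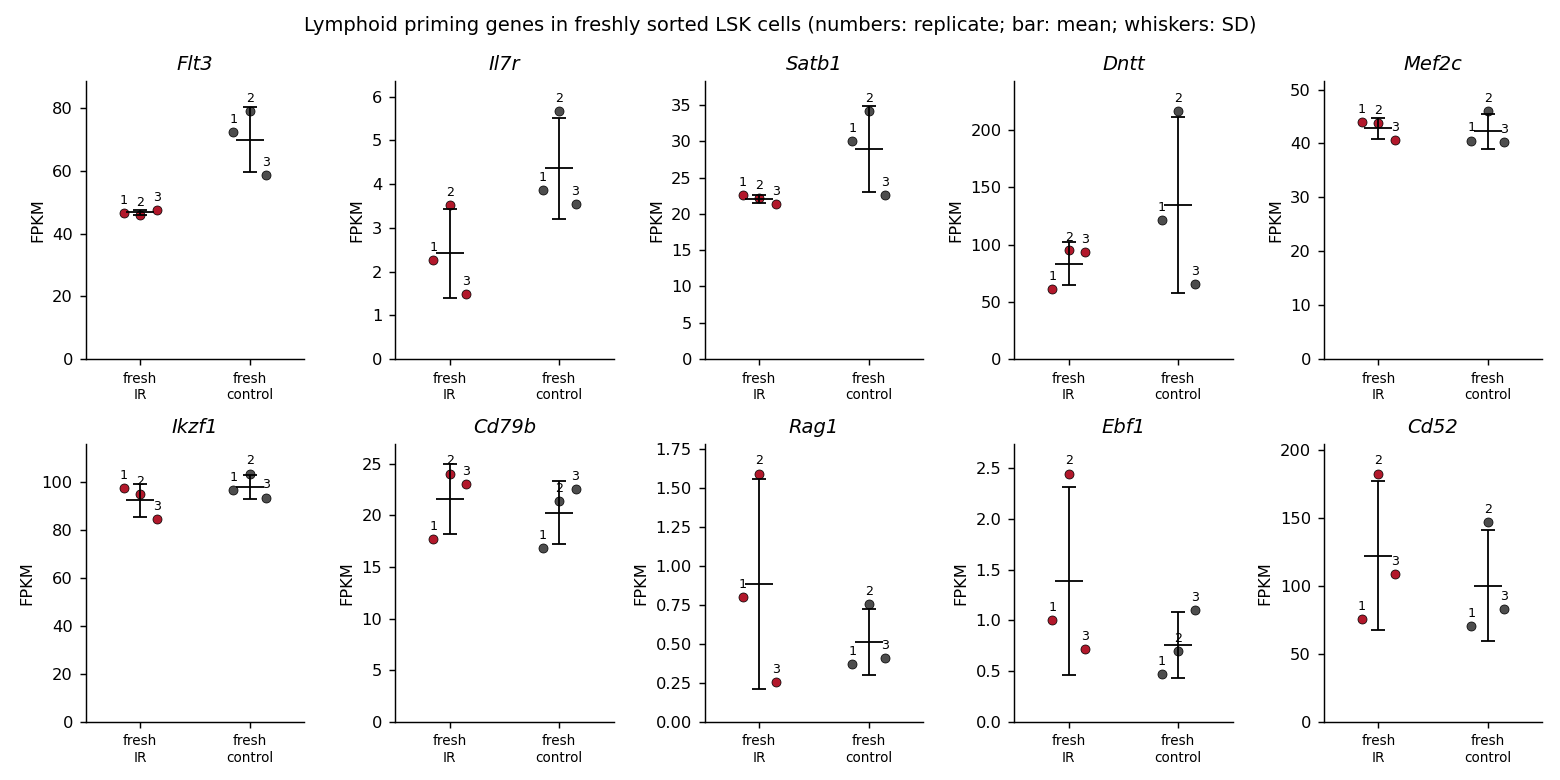
FPKM of all 10 genes in the 6 freshly sorted libraries, irradiated left and control right (points with replicate numbers, libraries; bar and whiskers, mean and SD, n = 3). The 3 irradiated Flt3 values lie between 46.0 and 47.6 FPKM, below all controls, and irradiated replicate 2 is the highest point for Rag1, Ebf1 and Cd52.

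Other genes of the lymphoid programme gave a mixed picture. Of 17 tested further genes of lymphoid progenitors, 6 fell and 2 rose in irradiated cultures without DL1, against 15.9% and 13.8% of all tested genes. The E protein gene Tcf4 (-0.49 ± 0.053, adjusted p = 1.65e-04, limma), the costimulatory receptor Cd27 (-0.44 ± 0.082, adjusted p = 0.00281) and the transcription factor Bcl11a (-0.50 ± 0.12, adjusted p = 0.0108) fell, whereas the tetraspanin Cd37 rose (0.31 ± 0.043, adjusted p = 6.54e-04). Their median was -0.15. With DL1, 10 of the 17 rose in irradiated and 10 in control cultures, while 3 fell in irradiated and 4 in control cultures. Over all tested genes, 24.4% rose and 17.0% fell with DL1 in irradiated cultures, and 14.0% rose and 12.3% fell in control cultures. Il12rb2, a chain of the interleukin-12 receptor, rose by 1.65 ± 0.18 in irradiated and 1.68 ± 0.18 in control cultures, and Bcl11a rose by 1.23 ± 0.12 in irradiated cultures. Cd27 was lower in irradiated than control cultures with DL1 too (-0.50 ± 0.082, adjusted p = 0.00792), as was the adaptor Lax1 (-0.46 ± 0.11, adjusted p = 0.0495).

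Early B lineage genes were near the floor in culture, where 2 of 15 were tested. Cd72, a B cell coreceptor, rose with DL1 in irradiated (1.26 ± 0.22, adjusted p = 6.72e-04, limma) and control cultures (0.91 ± 0.22, adjusted p = 0.00847). In freshly sorted cells 12 of the 15 were tested, and 11 had a positive change in irradiated cells, with a median of 0.50 against 0.0084 over all genes, of which 52.8% were above 0, but 0 passed in limma. Without irradiated replicate 2, 8 of 11 tested had a positive change, with a median of 0.18. Without adjustment 1 had p under 0.05, Cd79a (0.71 ± 0.27, adjusted p = 0.621).

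Of 13 tested partners of the 2 receptors, 0 passed after irradiation without DL1 in limma, and 0 had p under 0.05 without adjustment. Over all tested genes these shares were 29.7% and 41.7%. With DL1 the common gamma chain Il2rg, which pairs with Il7r, rose in irradiated (0.46 ± 0.059, adjusted p = 7.62e-05, limma) and control cultures (0.51 ± 0.059, adjusted p = 5.61e-05). Bcl2, a survival gene induced by interleukin-7 signals in lymphocytes, fell with DL1 in irradiated (-0.52 ± 0.061, adjusted p = 4.16e-05) and control cultures (-0.59 ± 0.061, adjusted p = 2.43e-05). The signalling inhibitor Socs3 fell by 0.56 ± 0.12 in irradiated and by 0.57 ± 0.12 in control cultures with DL1. In all, 3 of the 13 partners rose and 4 fell with DL1 in irradiated cultures, against 24.4% and 17.0% of all tested genes. In control cultures 2 rose and 2 fell, against 14.0% and 12.3% of all tested genes.

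Among the 9 tested partners of Rag1 and Dntt in recombination and end joining, 4 fell and 1 rose in irradiated cultures without DL1. Over all tested genes, 15.9% fell and 13.8% rose there. The DNA-bending proteins Hmgb2 (-0.31 ± 0.055, adjusted p = 0.00209, limma) and Hmgb1 (-0.32 ± 0.072, adjusted p = 0.00785) were among those that fell. Xrcc5, which encodes the Ku80 end-binding subunit, rose with DL1 in irradiated (1.07 ± 0.10, adjusted p = 7.51e-06) and control cultures (1.11 ± 0.10, adjusted p = 1.01e-05). Xrcc4 (-0.26 ± 0.068 in irradiated, -0.34 ± 0.068 in control cultures) and Dclre1c (-0.30 ± 0.067 and -0.29 ± 0.067) fell with DL1. In all, 4 of the 9 partners rose and 2 fell with DL1 in irradiated cultures, against 24.4% and 17.0% of all tested genes. In control cultures 1 rose and 2 fell, against 14.0% and 12.3% of all tested genes. Of the 3 tested Ikaros family genes, Ikzf1 alone passed after irradiation without DL1, while with DL1 Ikzf2 (Helios) rose in control cultures (0.33 ± 0.10, adjusted p = 0.0298).

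The genes most like the priming genes in pattern were found by Pearson correlation of log2(FPKM + 1) over the 12 cultured libraries, which share groups and depth, so r is a description only. Flt3 was most like Tes (r = 0.990), a gene for a focal adhesion protein, Mef2c most like the cyclin gene Ccnd1 (r = 0.995), and Satb1 most like Rapgef1 (r = 0.990). Ikzf1 and Flt3 shared 1700025G04RIK among their 3 closest genes, with r = 0.982 and r = 0.989. Il7r was most like Atg4c (r = 0.975), Cd52 most like Oas2 (r = 0.968), and Cd79b had the weakest match, Clec2i (r = 0.931).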

How the data were processed

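RNA was measured in 18 libraries, extracted with miRNeasy columns and prepared with TruSeq RNA reagents, per the labels' protocols. The authors deposited gene values in FPKM, in 2 tables normalized separately. TopHat 1.4.1, Cufflinks 1.3.0 and Cuffdiff are named in the submitters' processing notes, which give the human build hg19 for these mouse samples; the annotation, the filters and how fragments shared by similar genes were assigned are not given in the sources used here. Titles and conditions set the groups, since the source field of control samples names irradiated cells. The column for irradiated replicate 1 with DL1 was matched although its name puts the number before DL1.

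Where a name was repeated (28 rows), the row with the higher mean was kept. Genes averaging at least 1 FPKM in a table were tested in limma 3.58.1 (R 4.3.3) after adding a pseudocount of 1 and taking log2. The fit allowed for a mean-variance trend. The Benjamini-Hochberg method adjusted p-values across every tested gene, with calls under 0.05. One fit held all 12 cultured libraries and another the 6 freshly sorted ones. FPKM are not counts, so no count model was used, and the smallest change that the read depth could show is unknown. The fit was tested on simulated data. The genes and all gene lists were chosen with earlier results of these data known. All 10 genes were described, and from each further list up to 4 genes with the smallest p in a comparison were named. One such gene is not reported here. A few others (Kit, Ly6a and Cd79a in culture) were named after their values were seen.

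Labels do not say whether same-numbered cultures came from the same mouse. Same-numbered irradiated cultures with and without DL1 deviated together (r of 0.235, 0.145 and 0.355 across genes), so the numbers may pair them. Same-numbered irradiated and control cultures without DL1 had r of 0.158, 0.153 and -0.129, and differently numbered cultures were not compared. The main fit held group means only and left out any pairing. Adding the replicate block changed no call of the priming genes in irradiated cultures with DL1 against none. P-values in cultures measure the spread between single mice, and in freshly sorted cells between pools. Other settings tried were a pseudocount of 0.1 or 5, a filter at a mean of 5 FPKM or none, median-ratio scaling, rescaling without ribosomal RNA-like names, no trend, a replicate block, fits of 2 groups only, and leaving out each library.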

Additional observations from a re-analysis of the deposited data

Results flagged for a closer look

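Il7r differed in direction between settings. Its log2 fold change after irradiation was -0.67 in freshly sorted cells, with all 3 irradiated libraries below all 3 controls, and 0.54 in cultures without DL1, with all 3 irradiated libraries above all 3 controls. The first did not pass the test (adjusted p = 0.587, limma) and the second did (adjusted p = 0.0241). The difference between the settings was not tested, because the 2 tables were normalized separately.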

How the results depend on the processing

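The 44 changes of single genes and the 6 counts of genes called were recomputed under each alternative. No called change reversed, and 12 of 16 calls were kept throughout, those of Flt3, Satb1 and Cd79b, of Mef2c in irradiated against control cultures without DL1 and, with DL1 against none in irradiated cultures, of Mef2c, Ikzf1 and Il7r. The 4 others were lost under some alternative, as given beside each result. The number called with DL1 against none in control cultures was 4 and ranged from 2 (without replicate 3 of the control cultures with DL1) to 4 as single libraries were left out; the cause was not tested. The 3 counts of 0 stayed at 0 under every alternative. With the replicate block, Il7r passed in control cultures with DL1 against none (adjusted p = 0.0447), where same-numbered libraries did not deviate together, and no other call changed. Over all genes, the 13 called in freshly sorted cells became 4 without a filter, 21 after rescaling and 5 without irradiated replicate 1. The 3568 called after irradiation without DL1 became 1656 in a fit of 2 groups, 1880 without control replicate 2 and 2179 without irradiated replicate 1. The 380 called after irradiation with DL1 became 222 without a filter, 999 in a fit of 2 groups, and between 104 and 252 without replicates 1, 2 or 3 of the control or 1 or 2 of the irradiated cultures with DL1. The 9 called for the difference between irradiation effects became 18 with a pseudocount of 5, 3 without a filter or with the replicate block, 5 at a mean of 5 FPKM, and 0 to 191 as single libraries were left out, the highest without irradiated replicate 3 of the cultures without DL1. Genes under 1 FPKM, Dntt, Rag1 and Ebf1 in culture, were too low for any comparison.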
